A study of Mus musculus with 4 samples.

Results

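Genes of threonine, glycine and one-carbon metabolism were followed in mouse embryonic stem cells that lacked Suz12 (Suz12KO) or were wild type (WT). Embryonic stem cells are cultured pluripotent cells derived from the early embryo. The list holds 9 genes: Tdh, Gcat, Gldc, Amt, Shmt1, Mthfd1, Mthfd1l, Mthfd2 and Tyms. A probe set, the group of short oligonucleotides that reads a transcript on an Affymetrix array, was counted when the platform annotation gave one of these as its only gene symbol. That left 15 probe sets of 6 genes, out of 34945 probe sets of 18193 genes with a single symbol. Tdh and Amt had 0 named probe sets here, and the 3 probe sets that list Gcat also list Galr3, so these 3 genes are without a value of their own. There were 2 arrays of Suz12KO cells and 2 of WT cells, and the labels give no strain, culture condition or knockout strategy. The Suz12 protein belongs to the core of Polycomb repressive complex 2, which methylates lysine 27 of histone H3. Per the labels' protocols, equal parts of RNA from 3 separately extracted clones of each genotype were mixed, so variation between clones cannot be seen. It is not stated whether arrays of the same genotype carried separate RNA, so the p-values reflect the spread of the arrays, which may be technical.

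Threonine dehydrogenase (Tdh) and Gcat turn threonine into glycine and acetyl-CoA, a route known to be unusually active in mouse embryonic stem cells. The mitochondrial glycine cleavage system, which includes Gldc and Amt, and the serine hydroxymethyltransferases Shmt1 and Shmt2 load carbon units from glycine and serine onto tetrahydrofolate. Enzymes of the Mthfd family interconvert these folate-bound units in the cytosol (Mthfd1) and in mitochondria (Mthfd2, Mthfd1l). The units are spent on purines, on thymidylate through Tyms, and on methionine and S-adenosylmethionine, the methyl donor for histones and DNA.

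The labels were checked first on Suz12 and on cell type markers. Suz12 read 217 and 369 in Suz12KO and 1097 and 1094 in WT, which is -1.89 as a log2 fold change (SE 0.27, limma adjusted p = 0.00213). Of 16 pluripotency markers, 15 were higher in Suz12KO and 0 lower, and their summed signal was 152405 and 156280 in Suz12KO against 90992 and 91277 in WT. Of 15 tested fibroblast markers out of 21 on the array, 1 was higher and 9 were lower in Suz12KO, with a summed signal of 35398 and 35366 in Suz12KO against 108055 and 110366 in WT, and no marker was listed at 0. Among the other cell types checked, 2 of 12 tested endoderm markers were higher and 0 lower in Suz12KO, 2 of 9 trophoblast markers higher and 2 lower, and 0 of 7 neural markers higher and 3 lower. The summed signals of these 3 lists were 14655 and 14708 in Suz12KO against 13141 and 13249 in WT for endoderm, 14412 and 13800 against 34435 and 33409 for trophoblast, and 7581 and 8348 against 16949 and 17255 for neural markers. The trophoblast sum was mostly that of Krt8 (3911 and 3804 in Suz12KO, 14549 and 14513 in WT) and Krt18 (6098 and 6465 in Suz12KO, 17422 and 16555 in WT), while the median log2 fold change of that list was 0.54. Both Suz12KO arrays lay above both WT arrays for 5 of its 9 tested genes and below for 2. Over all 12735 tested genes they lay above for 3689 and below for 3043. Of all tested genes, 4.48% were called higher and 5.5% lower. RNA was pooled from whole cultures, so a different share of cells and a different level per cell cannot be told apart, and the part of these markers in the results below was not tested. As a check of RNA integrity, the 3' to 5' signal ratio of Gapdh was 0.889 and 0.871 in Suz12KO and 0.807 and 0.756 in WT. The same ratio of Actb was 1.141 and 1.137 in Suz12KO and 1.146 and 1.157 in WT, lower in Suz12KO where that of Gapdh was higher, and for Tfrc (2.43 and 2.84 in Suz12KO, 2.55 and 2.47 in WT) the genotypes overlapped. Bacterial control RNAs that read low throughout, and so were taken as not added, reached 195 and 174 in the Suz12KO arrays and 141 and 191 in the WT arrays, and mark the signal that background alone can give.

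Most of the measured enzymes were higher in Suz12KO cells. Gldc, Shmt1, Mthfd1 and Mthfd2 rose, Mthfd1l and Tyms did not pass the test, and 0 members fell by limma, also at an unadjusted p under 0.05. Mthfd2 changed most, by a factor of 2.05 (95% interval 1.54 to 2.74), followed by Gldc with 1.43 (1.20 to 1.71), Mthfd1 with 1.30 (1.16 to 1.46) and Shmt1 with 1.30 (1.12 to 1.52). For comparison, 4.48% of all 12735 tested genes were called higher and 5.5% lower. The median log2 fold change of the 6 members was 0.38, against 0.04 over all tested genes. Each gene was represented by its brightest probe set, and a call is an adjusted p under 0.05 in limma, which shares one variance model over all tested genes, with Benjamini-Hochberg adjustment. The array medians were 202 and 191 in Suz12KO and 175 and 171 in WT. After centring each array on its median, the log2 fold changes of all tested genes had a median of -0.13, which left Mthfd2 (0.87) as the single member called. Relative to the median of all tested genes, which centring does not alter, the log2 differences were 1.0 for Mthfd2, 0.48 for Gldc, 0.35 for Mthfd1, 0.34 for Shmt1, 0.30 for Tyms and -0.16 for Mthfd1l.

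**Figure D1:**
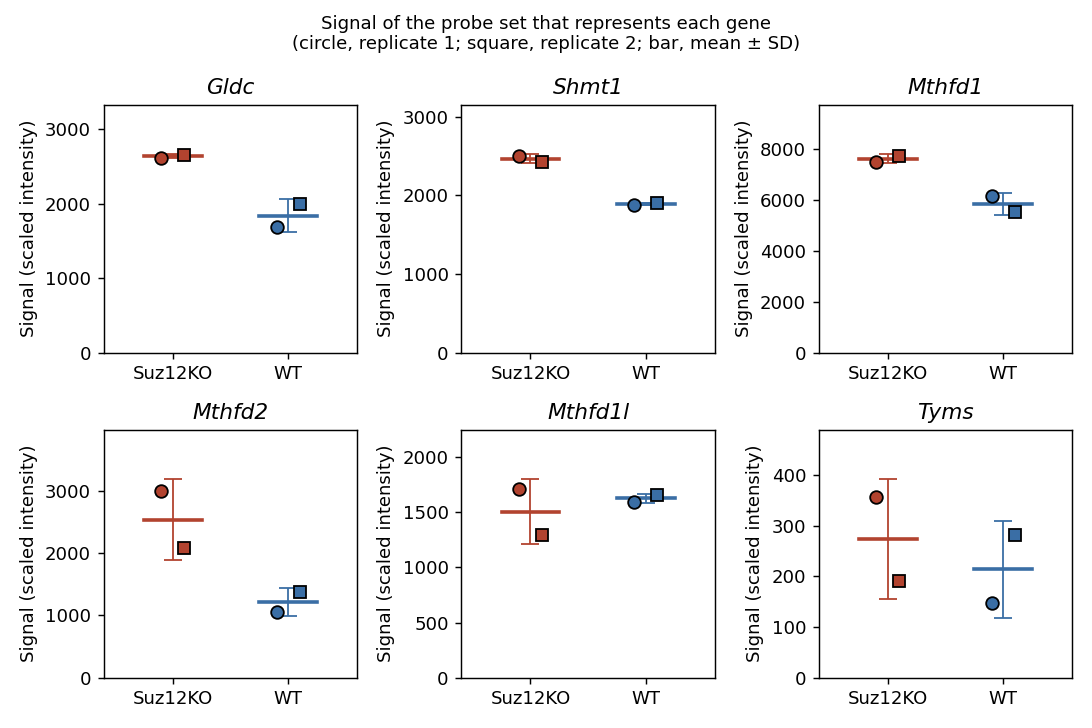
Signal (scaled intensity, linear axis from 0) of the probe set that represents each of the 6 measured genes, with Suz12KO arrays on the left and WT arrays on the right of each panel. Points are single arrays and bars are the mean ± SD of 2 arrays; both Suz12KO arrays lie above both WT arrays for Gldc, Shmt1, Mthfd1 and Mthfd2, and the genotypes overlap for Mthfd1l and Tyms.

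The promoters of the members called higher are shown because all of them carry a CCAAT box close to the annotated start. CCAAT is the short element bound by the factor NF-Y. It was picked from several motifs after the calls were known, and a link to the calls was not tested. Sequences are those of RefSeq on GRCm38.p6, 250 bases before to 50 bases after the start, 5′ to 3′ on the strand of the gene, and 8 of the 9 listed genes had one. Capitals mark CCAAT and the GC box GGGCGG, or ATTGG and CCGCCC where the match is on the opposite strand. The promoter of Mthfd1l, a member that was not called, is given for comparison.
Mthfd2, chr6:83317555-83317854, minus strand: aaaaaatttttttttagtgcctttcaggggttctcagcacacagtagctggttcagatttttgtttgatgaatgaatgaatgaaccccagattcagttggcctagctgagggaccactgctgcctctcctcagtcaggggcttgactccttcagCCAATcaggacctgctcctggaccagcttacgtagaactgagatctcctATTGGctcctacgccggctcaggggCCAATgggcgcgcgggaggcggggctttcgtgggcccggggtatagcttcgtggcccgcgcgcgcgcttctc
Gldc, chr19:30175392-30175691, minus strand: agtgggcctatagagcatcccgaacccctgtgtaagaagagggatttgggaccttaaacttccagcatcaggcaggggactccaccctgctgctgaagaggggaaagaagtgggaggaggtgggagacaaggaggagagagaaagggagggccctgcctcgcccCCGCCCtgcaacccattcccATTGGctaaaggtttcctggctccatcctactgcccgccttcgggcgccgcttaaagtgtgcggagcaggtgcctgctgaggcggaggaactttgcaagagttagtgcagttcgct
Mthfd1, chr12:76254982-76255281, plus strand: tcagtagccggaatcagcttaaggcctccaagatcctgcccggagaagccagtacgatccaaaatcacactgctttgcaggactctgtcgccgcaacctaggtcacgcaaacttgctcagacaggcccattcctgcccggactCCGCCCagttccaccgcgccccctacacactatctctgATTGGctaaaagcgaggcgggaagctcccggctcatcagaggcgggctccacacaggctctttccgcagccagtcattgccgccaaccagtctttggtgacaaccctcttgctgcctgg
Shmt1, chr11:60811216-60811515, minus strand: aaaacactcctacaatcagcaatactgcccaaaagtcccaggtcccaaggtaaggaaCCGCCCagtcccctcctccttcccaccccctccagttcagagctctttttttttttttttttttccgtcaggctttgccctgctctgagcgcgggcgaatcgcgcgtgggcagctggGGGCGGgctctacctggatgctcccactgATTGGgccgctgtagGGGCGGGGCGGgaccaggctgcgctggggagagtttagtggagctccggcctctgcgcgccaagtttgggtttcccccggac
Mthfd1l, chr10:3972825-3973124, plus strand: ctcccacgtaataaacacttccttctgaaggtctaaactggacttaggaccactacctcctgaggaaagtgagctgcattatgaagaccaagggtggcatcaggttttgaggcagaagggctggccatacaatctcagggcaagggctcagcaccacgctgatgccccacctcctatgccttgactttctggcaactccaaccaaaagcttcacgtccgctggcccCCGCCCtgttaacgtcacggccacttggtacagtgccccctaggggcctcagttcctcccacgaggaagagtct

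CCAAT was found 3 times in the Mthfd2 promoter, at -96, -47 and -22, counting the first base of the match from the start. It was found once in each of Gldc (-66), Mthfd1 (-69) and Shmt1 (-47), and 0 times in Mthfd1l and Tyms. Tyms was poorly measured, so it cannot be taken as a member that did not rise. Of the genes without a value of their own, Amt had 1 match (-210) and Gcat 0. Of 32851 RefSeq promoters of the same length, 37.4% held at least 1 CCAAT on either strand. GGGCGG was present in Gldc, Mthfd1, Mthfd1l, Tyms, Amt and Gcat once each and in Shmt1 4 times, where the matches at -32 and -27 share a base, against 35.7% of all promoters. Mthfd2 had 0 exact matches to it. The E-box CACGTG was present in Tyms (-61) and Gcat and in 7.15% of all promoters. The E2F-like TTTNGCGC (1.38% of all promoters), TTGCATCA, the core of the element bound by ATF4 (0.895%), and the TATA box TATAAA (13.6%) were present in 0 of the 8 promoters. The GC content of the 6 measured genes' promoters lay between 53.0% (Tyms) and 60.7% (Shmt1), against a median of 52.7% over all promoters. The ratio of observed to expected CpG was 0.646 for Mthfd2, 0.641 for Mthfd1 and 0.618 for Shmt1, and 0.389 for Gldc, 0.356 for Mthfd1l and 0.433 for Tyms, against a median of 0.384. These matches describe the letters of the window and do not show that a factor binds there.

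Gldc, the glycine decarboxylase that starts glycine cleavage, was read by a single probe set. It read 2614 and 2654 in Suz12KO and 1683 and 1998 in WT. The genotypes did not overlap, which was the case in this direction for 29% of all tested genes. The log2 fold change was 0.52 (SE 0.11, limma adjusted p = 0.0183). The call was lost without WT replicate 1 (0.40, adjusted p = 0.109) and without Suz12KO replicate 2 (0.51, adjusted p = 0.0536).

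Of 5 partners of glycine cleavage, which carry, oxidise or attach its lipoyl group, 1 rose, 0 fell and 4 did not pass. Over all tested genes, 4.48% were called higher and 5.5% lower. Gcsh, the lipoyl carrier protein, rose, with 6364 and 6807 in Suz12KO and 4993 and 5641 in WT, or 0.31 as a log2 fold change (SE 0.08, limma adjusted p = 0.0422). Its call was lost when either Suz12KO array or WT replicate 1 was left out (adjusted p 0.0515 to 0.239). Dld, the dehydrogenase that this system shares with pyruvate dehydrogenase, is named after its values were seen. It read 1120 and 880 in Suz12KO and 1768 and 1356 in WT, or -0.63 as a log2 fold change (SE 0.17, limma adjusted p = 0.0529), and fell past the threshold when Suz12KO replicate 1 or WT replicate 2 was left out (adjusted p 0.0250 and 0.0366). After centring each array on its median the balance of the list turned, with 0 called higher and 1 lower: Gcsh changed by 0.14 (adjusted p = 0.425) and Dld by -0.80 (adjusted p = 0.00967). With averaged probe sets 0 of 4 were called.

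Shmt1, the cytosolic enzyme that exchanges serine and glycine, had 4 probe sets, which differed in size of change. The brightest (1425179_at) read 2504 and 2424 in Suz12KO and 1880 and 1898 in WT, or 0.38 as a log2 fold change (SE 0.10, limma adjusted p = 0.0391 over genes). Probe set 1425178_s_at read 1351 and 1024 in Suz12KO against 715 and 713 in WT. Probe set 1422198_a_at read 1462 and 1323 in Suz12KO and 1017 and 930 in WT. In these 3 probe sets both Suz12KO arrays lay above both WT arrays. In the remaining one, 1425177_at, the genotypes overlapped, with 1263 and 1556 in Suz12KO and 1352 and 1119 in WT. When all 24461 probe sets with enough signal were tested together, where 2.82% were called higher, 1425178_s_at passed (0.71, SE 0.18, limma adjusted p = 0.0491), while 1425179_at (adjusted p = 0.0572), 1422198_a_at (0.51, adjusted p = 0.0704) and 1425177_at (0.19, adjusted p = 0.568) did not. The gene-level call of Shmt1 was lost without any 1 of the 4 arrays (0.36 to 0.40, adjusted p 0.0789 to 0.145), and the mean of its probe sets (0.45) did not pass (adjusted p = 0.0783).

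Mthfd2, the mitochondrial dehydrogenase and cyclohydrolase of one-carbon folates, rose in both of its probe sets. Probe set 1419253_at read 2998 and 2081 in Suz12KO and 1057 and 1380 in WT, or 1.04 as a log2 fold change (SE 0.19, limma adjusted p = 0.00725). Probe set 1419254_at read 2134 and 1922 in Suz12KO and 1346 and 1145 in WT, or 0.70 as a log2 fold change (SE 0.13, limma adjusted p = 0.0131 over probe sets). In both, the lower Suz12KO array stood above the higher WT array, as for 29% of all tested genes. Mthfd2 kept its call without any 1 array, with log2 fold changes of 0.78 to 1.30.

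Mthfd1, the cytosolic enzyme with synthetase, cyclohydrolase and dehydrogenase activity, rose in 1 of its 3 probe sets. The brightest (1415916_a_at) read 7476 and 7726 in Suz12KO and 6139 and 5519 in WT, or 0.38 as a log2 fold change (SE 0.07, limma adjusted p = 0.0103). Probe set 1415917_at read 5564 and 6385 in Suz12KO and 5761 and 4833 in WT (0.18, adjusted p = 0.398 over probe sets). Probe set 1436704_x_at read 593 and 723 in Suz12KO and 485 and 834 in WT (0.04, adjusted p = 0.958). The genotypes overlapped in the last 2, so the rise of Mthfd1 rests on a single probe set, and the mean of its probe sets (0.20) did not pass (adjusted p = 0.313). Without WT replicate 2 the gene-level call was lost too (0.31, adjusted p = 0.0800).

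Mthfd1l, the mitochondrial formate-producing synthetase, had 1 probe set. It read 1713 and 1294 in Suz12KO and 1595 and 1655 in WT, so that the Suz12KO arrays lay on either side of the WT arrays. The log2 fold change was -0.12 (95% interval -0.46 to 0.21, limma adjusted p = 0.674), and 0.08 without Suz12KO replicate 2. Whether Mthfd1l differed from Mthfd2 in its change was not tested.

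Tyms, thymidylate synthase, was poorly measured by the probe sets that name it alone. The brightest of 4 (1442192_at) read 358 and 190 in Suz12KO and 147 and 281 in WT, where the highest bacterial control RNA not added read 195 and 174 in Suz12KO and 141 and 191 in WT, so that 2 of the 4 arrays were close to the control. The genotypes overlapped, with a log2 fold change of 0.34 (95% interval -0.78 to 1.45, limma adjusted p = 0.743), which turned to -0.10 without WT replicate 1 and -0.09 without Suz12KO replicate 1. The other 3 probe sets lay under the highest control in all 4 arrays, between 10.3 and 136 in Suz12KO and between 7.64 and 105 in WT, and were left out of the test as too dim. Of the 15 probe sets, 12 were tested, and 5 were called higher and 0 lower, with both Mthfd2 probe sets among the 5. Of all tested probe sets, 2.82% were called higher and 3.99% lower.

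**Figure D2:**
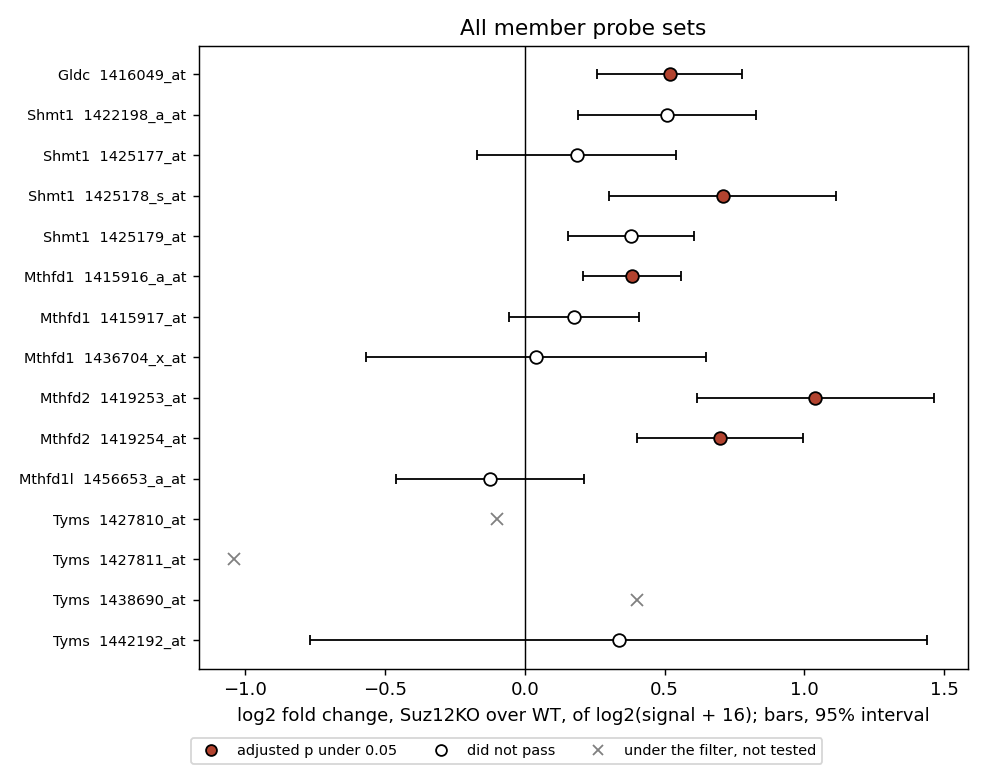
Log2 fold change of Suz12KO over WT for the 15 member probe sets, with 95% intervals from the fit over all probe sets. Filled points (5) passed at an adjusted p under 0.05, open points (7) did not, and crosses (3, all of Tyms) were too dim to be tested; the intervals of both Mthfd2 probe sets start at 0.40 or higher, whereas that of Tyms spans -0.77 to 1.44.

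Some probe sets list a member together with another gene and cannot be assigned to either. Of the 3 that list Gcat, the ligase that completes threonine breakdown, and the galanin receptor Galr3, 1417823_at read 1165 and 1388 in Suz12KO against 652 and 623 in WT, 1450581_at read 601 and 581 against 595 and 634, and 1417824_at read 121 and 44.1 against 170 and 182. The one that lists Tyms and its pseudogene read 2094 and 2057 in Suz12KO and 1748 and 1814 in WT, a log2 difference of 0.22. No test was made on these probe sets.

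Within serine metabolism, Shmt2 and the late steps of serine synthesis rose. Of 9 genes of serine synthesis and mitochondrial serine use, 3 rose, 0 fell and 6 did not pass. Among all tested genes, 4.48% were called higher and 5.5% lower. The median log2 fold change of the 9 genes was -0.05. Both Suz12KO arrays lay above both WT arrays for 4 of the 9 and below for 4. For all 12735 tested genes these numbers were 3689 and 3043. Shmt2, the mitochondrial counterpart of Shmt1, rose by 1.12 (SE 0.12, limma adjusted p = 0.000400), with 2970 and 3605 in Suz12KO and 1442 and 1558 in WT. Psph, which releases serine in the last step of its synthesis, rose by 0.63 (SE 0.15), with 1478 and 1394 in Suz12KO and 1004 and 841 in WT. Psat1, the aminotransferase before it, rose by 0.52 (SE 0.09), with 5111 and 4736 in Suz12KO and 3221 and 3636 in WT, but its second probe set changed by 0.08, with overlapping genotypes. Phgdh, the entry enzyme of the pathway, is named after its values were seen: it read 5439 and 5495 in Suz12KO and 5572 and 5736 in WT, or -0.05 as a log2 fold change (limma adjusted p = 0.731). Of the other Shmt2 probe sets, 2 showed no overlap (0.75 and 0.65) and 1, at 486 and 206 in Suz12KO and 184 and 308 in WT, did. The Psph call was lost when Suz12KO replicate 1 or WT replicate 2 was left out (adjusted p 0.0883 and 0.143), and after centring (0.47, adjusted p = 0.0751), and that of Psat1 with averaged probe sets (0.30, adjusted p = 0.136).

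Among 15 tested genes of other threonine and glycine reactions and transport, out of 25 on the array, 2 rose, 0 fell and 13 did not pass (median 0.36). The shares called over all tested genes were 4.48% higher and 5.5% lower. Both risers encode the transporter for large neutral amino acids. Its light chain Slc7a5 changed by 0.61 (SE 0.12), with 2353 and 2960 in Suz12KO and 1745 and 1712 in WT, and its heavy chain Slc3a2 by 0.45 (SE 0.07), with 7345 and 7040 in Suz12KO and 5552 and 5015 in WT. The Slc7a5 call was lost when Suz12KO replicate 2 or WT replicate 2 was left out (adjusted p 0.0656 and 0.0516). After centring 0 genes of the list were called, with 0.44 for Slc7a5 (adjusted p = 0.0687) and 0.28 for Slc3a2 (adjusted p = 0.0596).

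Of 10 tested cytosolic folate enzymes and carriers, 2 rose, 0 fell and 8 did not pass (median 0.21). By comparison, 4.48% of all tested genes were called higher and 5.5% lower. Fpgs, which adds glutamates that hold folate in the cell, changed by 0.41 (SE 0.10), with 2524 and 2308 in Suz12KO and 1825 and 1801 in WT. Qdpr, which regenerates tetrahydrobiopterin and so stands at the edge of this list, changed by 0.44 (SE 0.09), with 5014 and 4897 in Suz12KO and 3386 and 3943 in WT. Neither call held in every repeat: both were lost without WT replicate 1 (adjusted p 0.113 and 0.0913), and that of Fpgs also with Suz12KO replicate 1 or WT replicate 2 left out (adjusted p 0.149 and 0.140). After centring 0 of the 10 were called (adjusted p = 0.204 for Fpgs and 0.125 for Qdpr, list median 0.04), and 0 with averaged probe sets (adjusted p = 0.0582 for Fpgs and 0.0605 for Qdpr).

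In 3 lists of genes around uses of the carbon units, 0 were called higher under the reported processing, against 4.48% of all tested genes. Many genes of these lists do not spend such units themselves, and Tyms, which does, is counted with the members. Of 11 tested genes of the methionine cycle and transsulfuration, 2 fell and 9 did not pass limma (median 0.21). The share called lower over all tested genes was 5.5%. At an unadjusted p under 0.05, 2 of the 11 were higher and 2 lower. Ahcy, which clears S-adenosylhomocysteine after methyl transfer, fell by 0.29 on the log2 scale (SE 0.05, limma adjusted p = 0.00983), with 11107 and 10959 in Suz12KO and 13311 and 13657 in WT, although not without WT replicate 2 (adjusted p = 0.0796). Its relative Ahcyl1, with 2847 and 2727 in Suz12KO and 3642 and 3389 in WT, fell by 0.33 and lost its call without any 1 array (adjusted p 0.0728 to 0.232). Gart and Atic, the purine synthesis enzymes that use formyl folate, did not pass at an unadjusted p under 0.05 either: Gart read 6266 and 6766 in Suz12KO and 6555 and 6273 in WT (0.02), and Atic read 7378 and 6771 in Suz12KO and 7001 and 6824 in WT (0.03). After centring both were below 0 (-0.15 and -0.14), and a second Gart probe set changed by 0.32 without overlap. Of 11 genes of thymidine and deoxynucleotide supply, 0 rose or fell by limma (median 0.04), while 4 were higher and 2 lower at an unadjusted p under 0.05. The brightest were Rrm2, a ribonucleotide reductase subunit (0.04, and -0.13 after centring), and the nucleotide hydrolase Dctpp1 (0.20). When probe sets whose ID has a letter suffix (s, x or a, for sets that may read related or variant transcripts) were left out, 2 genes were called higher: Rrm2, through a second probe set (0.28, adjusted p = 0.0276), and the thymidylate kinase Dtymk (0.42, adjusted p = 0.0178). Another Rrm2 probe set changed by 0.26 without overlap. After centring the ribonucleotide reductase subunit Rrm1 was called lower (-0.40, adjusted p = 0.0126). Dtymk and Rrm1 are named after their values were seen.

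**Figure D3:**
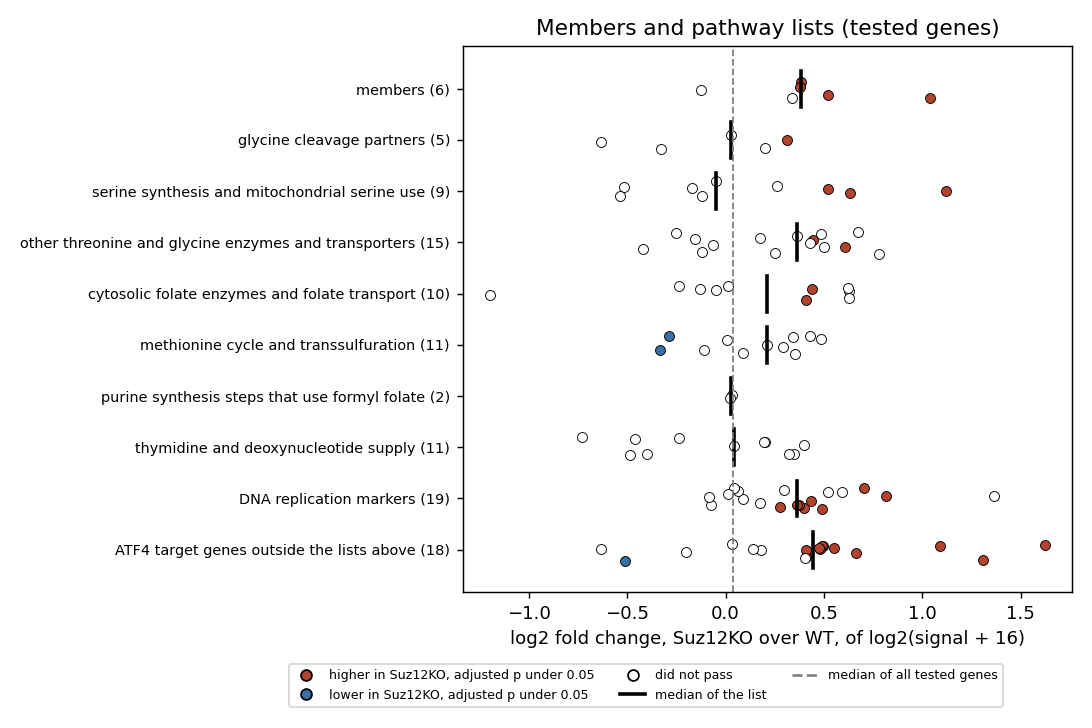
Log2 fold change of Suz12KO over WT for the tested genes of each list (number in brackets), with filled red points for genes called higher, filled blue points for genes called lower and open points for genes that did not pass. Black bars are list medians and the dashed line is the median of all tested genes (0.04); the members' median is 0.38, and the calls in the methionine cycle list are both lower.

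Targets of ATF4, the transcription factor of amino acid shortage and stress whose known targets include Mthfd2, Shmt2, Psat1 and Phgdh, were mostly higher. The list holds Atf4 itself and targets outside the lists above, so it does not count Phgdh, which changed by -0.05 and was not called. Of the 18 tested genes of the list, 11 rose, 1 fell and 6 did not pass (median 0.44). The test called 4.48% of all tested genes higher and 5.5% lower. Chac1, which degrades glutathione, changed by 1.31 (SE 0.20), with 1028 and 896 in Suz12KO and 377 and 380 in WT. Pck2, the mitochondrial phosphoenolpyruvate carboxykinase, changed by 1.62 (SE 0.34), with 725 and 619 in Suz12KO and 154 and 276 in WT. Its reading in WT replicate 1 was close to the highest control of that array (141). A second Pck2 probe set, under the highest control on every array, changed by -0.14 with overlapping genotypes. The mean of the Pck2 probe sets did not pass (0.74, limma adjusted p = 0.437). The pseudokinase Trib3 changed by 1.09 (SE 0.28), with 729 and 770 in Suz12KO and 266 and 442 in WT. Ddit4, an inhibitor of mTOR signalling, fell by 0.51 (SE 0.12), with 1803 and 2190 in Suz12KO and 2722 and 2968 in WT. Atf4 itself, 1 of the 11 that rose, is named after its values were seen. It read 8888 and 8690 in Suz12KO and 6354 and 6223 in WT, or 0.48 as a log2 fold change (SE 0.06, limma adjusted p = 0.00122). A second Atf4 probe set read 2934 and 3648 in Suz12KO and 2342 and 3120 in WT, with overlapping genotypes (0.27), and the mean of its probe sets did not pass (0.32, adjusted p = 0.268). Calls were lost for Pck2 without Suz12KO replicate 1, for Trib3 without WT replicate 1 or either Suz12KO array, and for Ddit4 without Suz12KO replicate 1 or WT replicate 2 (adjusted p 0.0670 to 0.154), and after centring 6 genes of the list were called higher, against 7 with averaged probe sets and 6 of 14 without letter-suffixed probe sets.

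Markers of DNA replication, the process that consumes thymidylate, were also higher in part. Of 19, 8 rose, 0 fell and 11 did not pass (median 0.36), against 4.48% higher and 5.5% lower over all tested genes. Prim1, a primase subunit, changed by 0.71 (SE 0.11), with 3403 and 3361 in Suz12KO and 1901 and 2251 in WT, but its second probe set changed by 0.15 with overlapping genotypes. The licensing factor Cdt1 changed by 0.49 (SE 0.07), with 8765 and 8150 in Suz12KO and 5902 and 6140 in WT. Pola1, the catalytic subunit of polymerase alpha, changed by 0.81 (SE 0.22), with 1068 and 1004 in Suz12KO and 475 and 711 in WT, and lost its call without WT replicate 1 or either Suz12KO array (adjusted p 0.0790 to 0.199). The number called was 5 without Suz12KO replicate 2, 2 after centring and 3 with averaged probe sets. The part of replication or of ATF4 in the members' rise was not tested.

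**Figure D4:**
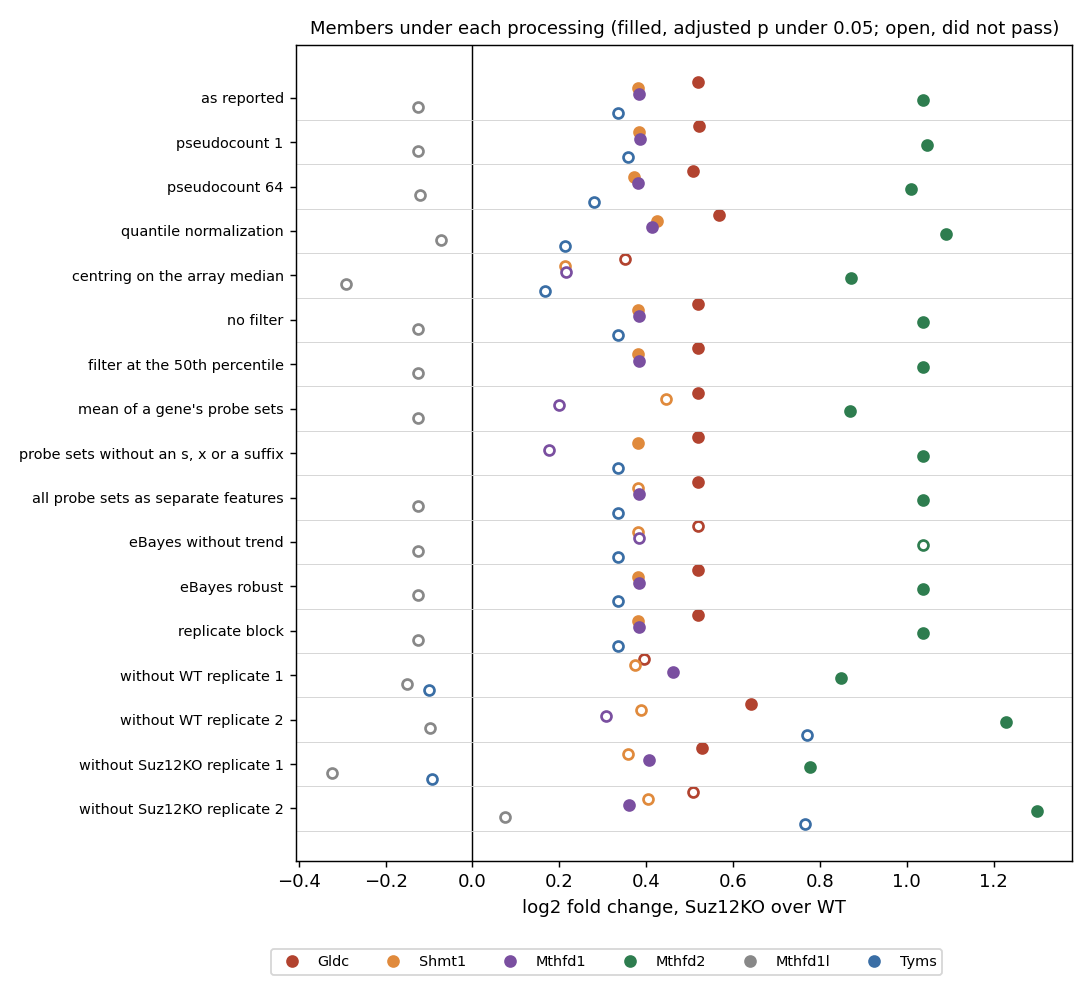
Log2 fold change of each measured member (colour) under the reported processing and each alternative, filled where the adjusted p was under 0.05 and open where it was not, with points of a setting spread vertically for legibility. Mthfd2 stays between 0.78 and 1.30 and is filled in every setting except eBayes without trend, while Shmt1 ranges from 0.21 to 0.45 and Mthfd1l and Tyms are open in every setting in which they were tested.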

How the data were processed

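The authors deposited linear probe set intensity, for 45101 probe sets on each of 4 arrays. How it was summarised is not given in the sources. The mean without the lowest and highest 2% was 500.003 on every array, so the deposited intensity had been scaled to one trimmed mean, and a shift common to most genes is not measurable. The number of arrays limits the precision.

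Of the probe sets, 34945 had 1 gene symbol in the platform annotation, 932 several and 9160 none, beside 64 controls. Values were transformed as log2(signal + 16), which understates folds of dim genes. The probe set with the highest mean stood for each gene, and the genes below the 30th percentile by mean log2 value were not tested. Suz12KO was compared with WT in limma 3.58.1 (R 4.3.3), two-sided, with a mean-variance trend and Benjamini-Hochberg adjustment over all tested genes, or over all 24461 tested probe sets. In simulated data for this comparison (12735 genes), 44% of 2-fold and 74% of 4-fold changes were recovered, and 8 of 126 calls were false. Promoters were matched by symbol. Figures used matplotlib 3.10.9.

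The members, lists and tests were chosen with earlier results of these data known. Named genes were all members, Suz12, and per list the 3 largest rises and falls past the test or the 2 brightest genes. A planned search for genes resembling Tdh could not be made, since no probe set names Tdh here. Probe sets with several symbols were not tested. Alternatives concerned pseudocount, normalization, filter, probe set choice, variance model, a replicate block and leaving out each array; repeating them for genes outside the members was chosen after seeing the data.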

Additional observations from a re-analysis of the deposited data

How the results depend on the processing

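Of 6 measured members, 4 were called. The number was 1 after centring on the array median, 2 with averaged probe sets, 0 with eBayes without trend, and 2 to 3 when an array was left out. Called probe sets, 5 of 12, numbered 2 after centring, 0 without trend, and 2 to 3 when an array was left out. Without trend limma called 0 genes in the whole table (smallest adjusted p 0.0999; 2332 genes had an unadjusted p under 0.05), and 1270 with trend. Of those 1270 calls 44.9% were higher in Suz12KO, against 19.1% after centring. Calls over the whole table numbered 611 with the mean of probe sets, 2098 with the replicate block and 798 without WT replicate 2. The replicate numbers pair the arrays only by name (correlation of same-numbered deviations 0.0154), and with the block 4 member genes and 7 member probe sets were called. Mthfd2 kept its call under 15 of 16 alternatives, Gldc under 12, Mthfd1 under 11 and Shmt1 under 8. Direction turned for Atic (-0.14) and Gart (-0.15) after centring, for Rrm2 after centring (-0.13), and with averaged probe sets for Atic (-0.029) and Phgdh (0.020). When an array was left out the log2 fold change ranged from -0.32 to 0.076 for Mthfd1l, from -0.10 to 0.77 for Tyms, from -0.030 to 0.094 for Atic and from -0.033 to 0.077 for Gart, with the sign turned without Suz12KO replicate 2 for Mthfd1l, without WT replicate 1 or Suz12KO replicate 1 for Tyms, without Suz12KO replicate 1 for Atic, and without WT replicate 2 or Suz12KO replicate 2 for Gart. None of these had passed the test. The cause of these changes was not tested. Tyms had too little signal to be tested with the 50th percentile filter or the mean of its probe sets, and Mthfd1l has no probe set without a suffix.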
